A study of Mus musculus with 64 samples.

Results

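The small RNA of gonadal fat was compared between 5 male and 6 female mice that carry the human gene for arsenic methyltransferase (AS3MT), the enzyme that methylates inorganic arsenic. These 11 libraries were taken from the 64 samples of the series by 2 criteria: the deposited table of normalized small RNA counts from adipose tissue, and the library names for humanized males and humanized females. All 11 animals were of the 129S6/SvEvTac strain and had drunk water with 400 ppb of inorganic arsenic (iAs) for 4 weeks. The wild-type (WT) animals set beside them, 4 males and 5 females, were of the same strain and received the same exposure. No unexposed animal entered any comparison here, so every value describes exposed tissue. The labels give the tissue as adipose and the design text as gonadal fat; ages, the regulatory sequence that drives the human allele and the way the pads were dissected are not given in the sources used here. Gene expression libraries of the same tissue, 3 from humanized males, 3 from humanized females, 2 from WT males and 3 from WT females, were used for neighbouring genes and tissue markers. The labels do not say whether they came from the same animals. Library names hold digits that differ between the sexes, and their meaning is not given, so a cage or handling effect cannot be told apart from sex.

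MicroRNAs (miRNAs) are short RNAs that guide Argonaute proteins to messenger RNAs, mainly through the seed, bases 2 to 8 of the mature strand. Each hairpin precursor can give a 5p and a 3p strand, and 1 of them usually accumulates. Gonadal fat is the visceral depot attached to the epididymis and testis in males and to the ovary, oviduct and uterine horn in females, so the male and the female pad lie beside different organs. Fat depots are known to keep the Hox gene activity of their position along the body axis, and the miR-196 and miR-10 genes lie inside the Hox clusters and are transcribed with them.

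The mature sequences that carry the result are shown because the features that differ fall into a few seed groups, written 5′ to 3′ with the seed in capitals. They were taken from RefSeq (GRCm38.p6), in which 2060 of the 2173 features of the table were found by name. The authors' processing notes name the older build mm9, so the coordinates are those of the reference and not of the authors' files.
miR-196a-5p: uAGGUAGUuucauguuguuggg
miR-196b-5p: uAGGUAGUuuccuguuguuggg
let-7a-5p: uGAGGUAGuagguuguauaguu
miR-10a-5p: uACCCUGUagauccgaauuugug
miR-10b-5p: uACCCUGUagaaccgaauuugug
miR-582-5p: aUACAGUUguucaaccaguuac
miR-582-3p: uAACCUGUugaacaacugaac
miR-344d-3p: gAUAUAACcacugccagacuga
miR-344e-3p: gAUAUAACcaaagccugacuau
miR-344-3p: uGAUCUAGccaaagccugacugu

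The miR-196a-5p and miR-196b-5p strands share the seed AGGUAGU and differ at 1 base, A12C, counted from the 5′ end of miR-196a-5p. No other mature miRNA in the RefSeq table has that seed. The let-7a-5p strand is printed for contrast, since its seed holds the run AGGUAG of the miR-196 seed 1 base further from the 5′ end, and it belongs to another family. miR-10a-5p and miR-10b-5p also share a seed and differ by U12A, counted from the 5′ end of miR-10a-5p. miR-344d-3p and miR-344e-3p share their seed with miR-410-3p and differ from each other at 5 bases, all outside the seed, while miR-344-3p has another seed. Identical mature strands come from 2 loci for miR-196a-5p, chr11:96265187-96265208 between Hoxb13 and Hoxb9 and chr15:102973365-102973386 between Hoxc10 and Hoxc9, both on the plus strand. miR-196b-5p lies at chr6:52230129-52230150 on the minus strand, between Hoxa9 and Hoxa10. miR-10b-5p lies at chr2:74726074-74726096 on the plus strand, within the annotated spans of Hoxd3 and Hoxd4. miR-10a-5p lies at chr11:96317186-96317208 on the plus strand, within the span of Hoxb3 and between Hoxb5 and Hoxb4. miR-582-5p, at chr13:109324753-109324774 on the plus strand, lies within the phosphodiesterase gene Pde4d. The 1st copy of miR-344d-3p is at chr7:61683127-61683148 on the minus strand, and all the miR-344 loci lie between Gm51483 and Ndn. Reads of identical strands cannot be assigned to 1 locus, and values of such copies are therefore not separate measurements.

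The libraries of humanized animals held between 11631509 and 24606986 listed reads and between 1237 and 1479 features with signal. Reads are inferred here by taking the smallest value of each library as 10 reads. On that reading, a feature listed at 0 may have had up to 9 reads. Libraries were assigned to a first and a second sequencing run, so called here, from the form of the library name. The run was a term in the main small RNA tests. It was not a term in the fit on the authors' batch-corrected rlog values, nor in an alternative that left it out. The first run held 3 males and 3 females, the second 2 males and 3 females. Levels are the authors' normalized counts, called signal here, and differences are male minus female on the log2(signal + 10) scale, which understates the change of low features. Some libraries stood apart in single tissues' miRNAs. Humanized female replicate 9 had 9449.5 of miR-217-5p, a miRNA of pancreatic acinar cells, against 185.6 to 249 in the other 5 females. WT female replicate 10 had 109625 of miR-34c-5p, abundant in ciliated and male germ cells, against 1744 to 2110.1 in the other 4 WT females. The count of WT calls is therefore also given without it.

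Of 1106 autosomal features tested, 18 were lower in males and none was higher at an adjusted p under 0.05 (limma, Benjamini-Hochberg over all 1298 features tested). The 18 make up 1.63% of the autosomal features, and over all 1298 features 1.54% were called in either direction, 1.39% lower and 0.154% higher. The 2 features called higher, miR-322-5p and a shifted form of miR-322-3p, are X-linked and are not described further. All 18 belonged to 4 groups: 9 were strands or forms of miR-196, 5 were copies of miR-344d-3p and miR-344-3p, 3 came from miR-582 and 1 from miR-10b. In each of the 18 the 5 males lay below all 6 females, which was so for 2.17% of autosomal features and 1.85% of all features tested (higher in males 0.385%, either way 2.23%). The median difference over the autosomal features was 0.02. Without humanized female replicate 7 the count of all calls was 56, of which 46 were autosomal, 36 lower and 10 higher, and all 18 were among them. Without the library rich in miR-217-5p the autosomal count was 18.

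**Figure D1:**
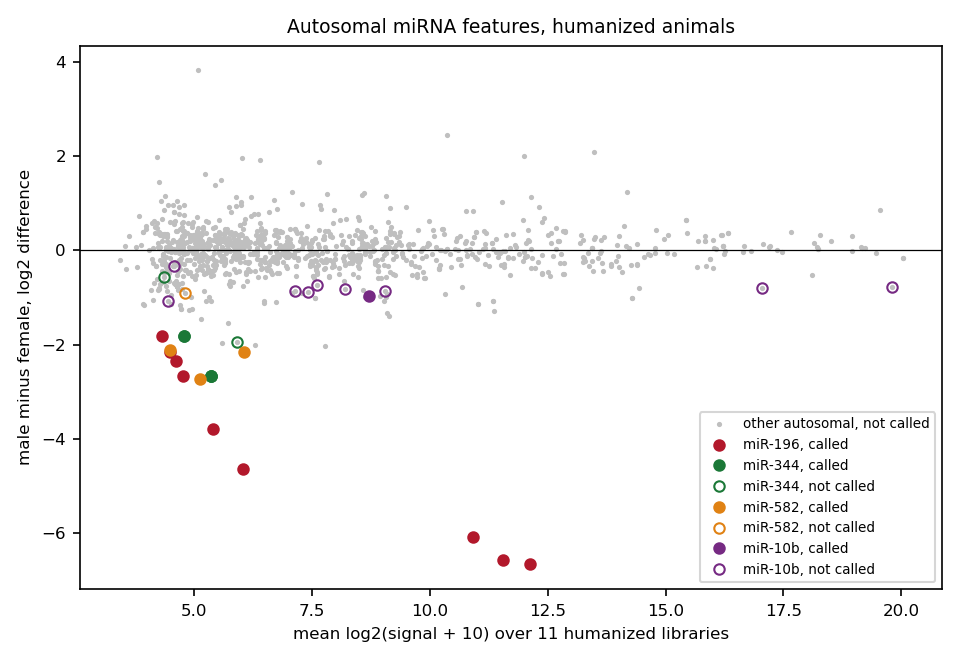
Male minus female log2 difference (vertical axis) against the mean log2(signal + 10) over the 11 humanized libraries (horizontal axis), 1 point for each of 1106 autosomal features. Filled colours mark the 18 features with an adjusted p under 0.05, which lie between -6.67 and -0.97, and open colours mark other tested features of the same families.

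miR-196 showed the largest differences in the comparison. The miR-196a-2-5p feature ranged from 31105 to 49218 in the 6 humanized females, with a median of 35146. Its signal was 135.95, 359.8, 364, 368 and 754 in the 5 males. The highest male stood far below the lowest female. The difference was -6.67 ± 0.33 (SE; limma adjusted p = 4.1e-08), a fitted level 102 times higher in females. On the authors' rlog values the difference was -4.66, and under the other alternatives it lay between -6.96 and -6.36. The copy feature miR-196a-1-5p had a mean of 24459 ± 4671 (SD, n = 6) in females and 268 ± 137.8 (SD, n = 5) in males, a difference of -6.58 ± 0.31 (SE; limma adjusted p = 4.0e-08). The ratio of the 2 copy features lay between 0.629 and 0.688 in females and between 0.638 and 0.725 in males. miR-196b-5p, from the Hoxa cluster, ranged from 8685 to 19846 in females (median 14108) and was 104, 121, 139.8, 227 and 479.9 in males. These groups did not overlap either, and the difference was -6.08 ± 0.35 (SE; limma adjusted p = 1.5e-07).

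Males still had listed reads of the miR-196 5p strands in every library, so the strands were low and not at 0. Male replicate 9 was the highest male for all of the annotated 5p strands, and male replicate 8 the lowest. Together the miR-196 features took 0.413% to 0.559% of the listed signal in females and 0.00206% to 0.0112% in males. The 3p strands and the forms with a shifted start are less abundant and were listed at 0 in nearly all males. miR-196b-3p was 42.4 to 82.1 in females and at 0 in 5 of 5 males. miR-196a-2-3p was 20.3 to 66.7 in females and at 0 in 5 of 5 males. The form of miR-196a-2-5p with an offset of +1 ranged from 234 to 325 in females. It reached 9.41 in male replicate 9 and was at 0 in the other 4 males. The other 3 shifted forms that were tested were at 0 in all males and between 13.3 and 188 in females. No fold is given for features at 0. In females the +1 form made up 0.739% ± 0.053 (SD, n = 6) of the miR-196a-2-5p signal and 13.1% ± 0.36 of the miR-10b-5p signal. All 9 tested miR-196 features, of 21 in the table, were called. Testing needed a mean signal of at least 10 over the 20 libraries, which the 3p strands and shifted forms reached through the females. That all were called follows in part from this filter, and they include copies and forms of the same strands. The 3 annotated 5p strands were called under all 21 alternative settings, with limma adjusted p from 3.8e-13 to 0.0078. Within the first run alone their differences were between -6.62 and -5.79, and within the second between -6.72 and -6.44.

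**Figure D2:**
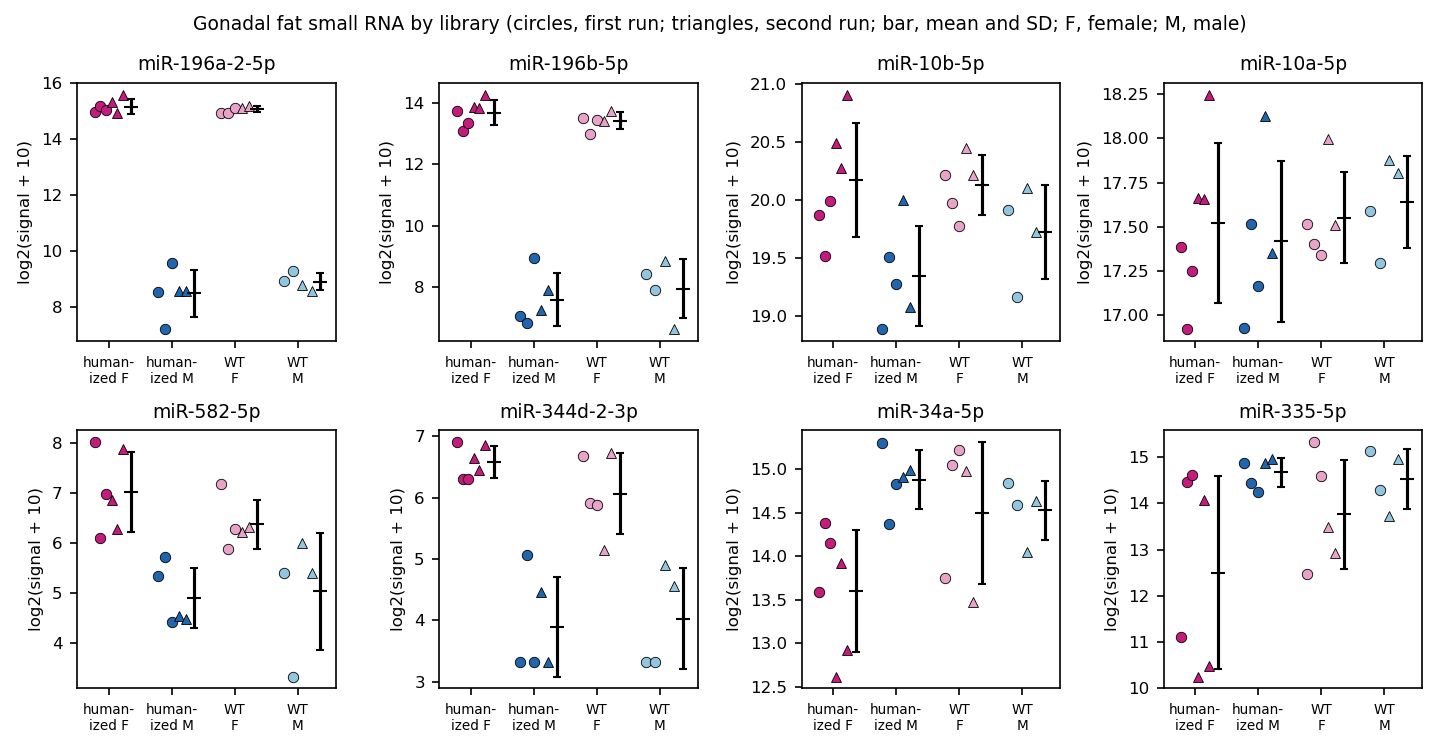
Level of 8 miRNAs in each of the 20 gonadal fat small RNA libraries, as log2(signal + 10), with the mean and SD of each group beside its points. Both miR-196 strands separate the sexes in humanized and WT animals, miR-10a-5p overlaps in all groups, and miR-335-5p is between 1210.3 and 2215 in 3 humanized females and 17075 or more in the other 3.

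The miR-10 strands differed less, and unequally. miR-10b-5p, 1 of the 5 most abundant autosomal features, ranged from 750328 to 1967731 in the 6 females (median 1156038). In the males it was 483483, 551871, 632345, 746265 and 1045084. Male replicate 10 lay inside the female range. The difference was -0.77 ± 0.20 (SE; limma adjusted p = 0.067), and the adjusted p ran from 0.025 to 0.71 over the alternatives, 3 of 21 of them under the threshold. All 10 tested features of miR-10b had a difference below 0, but they share 1 precursor. One of them, the form of miR-10b-3p with an offset of -1, passed the test. It was 430.7 to 718 in females and 179.7, 296.5, 300.01, 324 and 338.001 in males, a difference of -0.97 ± 0.19 (SE; limma adjusted p = 0.0215). It is named after its values were seen. Its call was lost without female replicate 6, female replicate 8 or male replicate 7, with adjusted p up to 0.076. The call was also lost in either run alone and in a fit with the replicate number as a block. miR-10a-5p, the strand with the same seed from the Hoxb cluster, overlapped between the sexes. Its mean was 196119.5 ± 64566 (SD, n = 6) in females and 182572 ± 62548 (SD, n = 5) in males, a difference of -0.04 ± 0.18 (SE; limma adjusted p = 0.92) whose sign changed under 6 alternatives. miR-615-3p, from within Hoxc5, was 693 to 1102 in females and 517 to 1021 in males (limma adjusted p = 0.40). The 10 tested features of the Hox cluster list, all with the annotated start, had a median difference of -1.49 against -0.06 over the 480 autosomal features with the annotated start (-1.31 against -0.15 in WT animals). Of the 10, 5 were called, against 12 of the 480, and those 12 include the 5.

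The Hox genes around these loci, measured in the mRNA libraries, gave the values of the host region. The fit tested 17394 genes, of which 20, or 0.115%, were called, 13 (0.0747%) lower and 7 (0.0402%) higher in males (limma on log2(signal + 1), adjusted p under 0.05). Of the 39 Hox genes, 33 were tested, and 5 were called, all lower in males: Hoxa9, Hoxa10, Hoxa11, Hoxa13 and Hoxc11. Hox genes encode transcription factors that specify position along the body axis, and high numbers mark the posterior end. Hoxa10, which flanks miR-196b, was 877, 1159 and 1294 in the 3 females and 2.2, 9.69 and 0 in the 3 males, a difference of -8.40 ± 0.70 (SE; limma adjusted p = 0.0014). Hoxa9, on its other side, was 657, 1509 and 1028 in females and 15.6, 94.2 and 8.44 in males, a difference of -5.35 ± 0.74 (SE; limma adjusted p = 0.038). The Hoxa9 call was lost in 6 of 12 alternatives, among them the removal of any 1 female and of male replicate 4 or 6, with adjusted p up to 0.20. Hoxc10, next to the 2nd miR-196a locus, was 2165.8, 2557 and 2102 in females and 20.4, 54.1 and 0 in males, and its difference of -7.74 ± 1.17 (SE) had a limma adjusted p of 0.057. Hoxc9, on the other side of that locus, differed less, at 921, 947 and 965 in females and 417, 683 and 209 in males. Its difference of -1.27 ± 0.36 (SE) had a limma adjusted p of 0.34. The 3 females lay above the 3 males for each of these genes. Hoxb9, next to the 1st miR-196a locus, overlapped between the sexes, at 108 to 357 in females and 117 to 146.6 in males (limma adjusted p = 0.70). Hoxb13, on the other side of that locus, was at 0 in all humanized libraries. Hoxd4, whose span holds miR-10b, was 2388, 2772 and 2453 in females and 883, 1396 and 1001 in males, which did not pass (limma adjusted p = 0.26). Hoxb4, next to miR-10a, overlapped at 1016 ± 78.0 (SD, n = 3) in females and 1038 ± 159.6 in males (limma adjusted p = 0.98). Hoxc4 and Hoxc8 had the opposite sign: Hoxc4 was 548 to 688 in females and 1022 to 1641 in males (difference 1.17 ± 0.18, SE; limma adjusted p = 0.070), and Hoxc8 had an adjusted p of 0.26. Of the 33 tested, 23 had a difference below 0 and 10 above, 14 did not overlap with males lower and 3 did not overlap with males higher, against 9.57% and 8.34% of all genes tested. In WT animals Hoxa10 was 1115 to 1291 in 3 females and 2.09 to 4.28 in 2 males, and Hoxc10 was 2221 to 2804 in females and 12.2 to 28.1 in males.

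**Figure D3:**
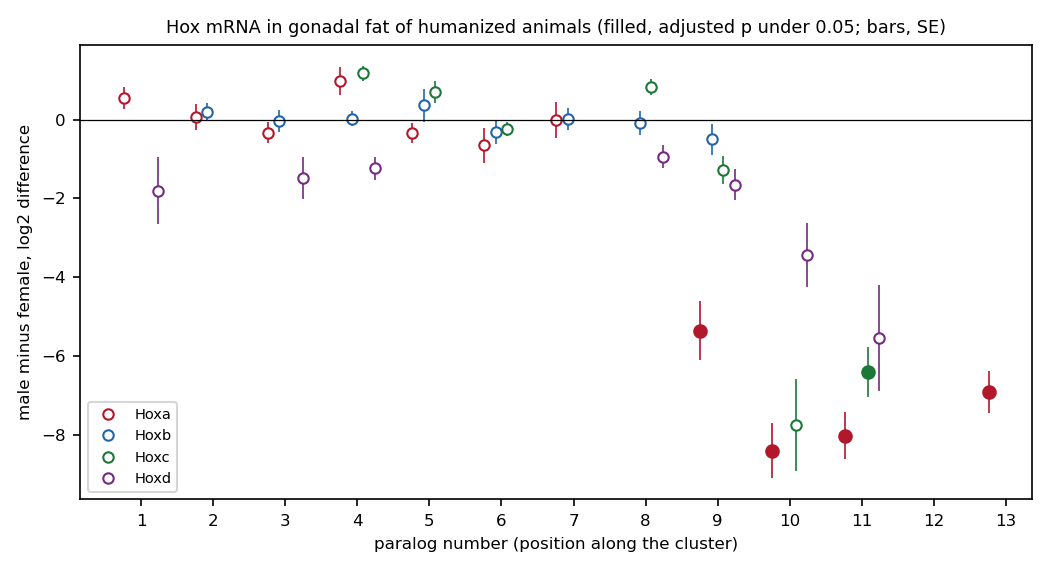
Male minus female log2 difference of 33 Hox mRNAs in the gonadal fat of humanized animals (vertical axis, with SE) against the paralog number of the gene (horizontal axis), coloured by cluster. The 5 filled points passed the test, and they are Hoxa9, Hoxa10, Hoxa11, Hoxa13 and Hoxc11, while the Hoxb genes lie between -0.50 and 0.36.

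miR-582 and the miR-344 group were the other autosomal miRNAs called lower in males. They fell outside the rule for named features because their mean signal was under 100, and they were chosen after their values were seen. miR-582-5p was 58.2 to 247.9 in the 6 females (median 111) and 11.3, 12.1, 13, 30.4 and 42.7 in the 5 males. The groups did not overlap, and the difference was -2.15 ± 0.39 (SE; limma adjusted p = 0.0091). miR-582-3p was 23.7 to 59.4 in females and at 0 in 5 of 5 males (limma adjusted p = 0.00029). The +1 form of miR-582-5p was 32.8 to 141.6 in females, 20.7 in male replicate 8 and 0 in the other 4 males (limma adjusted p = 0.0016). Pde4d, the gene that contains miR-582, was 631 to 782 in the females and 679.6 to 904 in the males and did not pass (limma adjusted p = 0.87). Thus both strands of the hairpin were lower in males while the mRNA of the surrounding gene overlapped.

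miR-344d-3p, listed under 3 copy names with nearly identical values, was 68.8 to 110.0 in the females for the 2nd copy. In the males it was 0 in replicates 7, 9 and 13, 23.3 in replicate 8 and 11.9 in replicate 10. The difference was -2.68 ± 0.34 (SE; limma adjusted p = 0.00046). miR-344-3p, listed under 2 copy names with the same values, was 25.5 to 52.5 in females and 0, 0, 0, 9.67 and 15.5 in males, a difference of -1.82 ± 0.31 (SE; limma adjusted p = 0.0058). miR-344e-3p, with the seed of miR-344d-3p, was 51 to 141.3 in females and 0, 13.7, 14.1, 21.7 and 93.2 in males. Male replicate 8 alone lay inside the female range, and the difference of -1.94 ± 0.47 (SE) had a limma adjusted p of 0.063, which was 0.00033 without that replicate. The adjusted p was under the threshold in 6 alternatives and not in 14. All 7 tested features of the group, of 8 in the table, had a difference below 0, but they include these copies, which are not separate measurements. miR-344d-3p and miR-344-3p also passed the signal filter mainly through the females. Over all autosomal features tested, 48.6% were below 0. The calls of miR-582-5p, miR-344d-3p and miR-344-3p held without any 1 library, with adjusted p at most 0.047. None of these held in either run alone or in a fit with the replicate number as a block. The call of miR-582-3p was also lost with that block and in the second run alone. In the first run the difference of miR-344d-2-3p was -2.60 (limma adjusted p = 0.14) and in the second -2.76 (adjusted p = 0.071).

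No autosomal feature was called higher in males, and 180 autosomal features had an unadjusted p under 0.05 in either direction. The smallest p in that direction belonged to miR-34a-5p, a target of p53 that is known from stressed and senescent cells. It was 6272 to 21379 in the females (median 13955) and 21103, 29166, 30625, 32519 and 40379.7 in the males. Only female replicate 7 lay inside the male range. The difference was 1.24 ± 0.29 (SE; limma adjusted p = 0.057), and 6 of 21 alternatives were under the threshold. In WT animals miR-34a-5p overlapped, with a difference of 0.07 ± 0.38 (SE; limma adjusted p = 0.93), and the difference between genotypes was not called (1.16, adjusted p = 0.80). miR-144-3p, an erythroid miRNA, was 1386 to 5359 in females and 5618 to 9593 in males without overlap, a difference of 1.13 ± 0.28 (SE; limma adjusted p = 0.063). The 5 erythrocyte features, miR-144, miR-451 and miR-486, all had a difference above 0, with a median of 0.65 (1.92 in WT animals). miR-335-5p, from an intron of the imprinted gene Mest, split the females: it was 1210.3, 1414 and 2215 in replicates 9, 12 and 6 and 17075 to 24854 in the other 3. The 5 males were all between 19323 and 31656, and the difference of 2.09 ± 0.79 (SE) did not pass (limma adjusted p = 0.24). Mest mRNA varied as widely, from 1510 to 31771 in the 3 female mRNA libraries. The immune list was mostly above 0, in 20 of 21 features with a median of 0.42, and none passed. In WT animals its median was -0.12. Of this list miR-147-3p was 72.8 to 388 in females and 190.1 to 657 in males (limma adjusted p = 0.13). Its limma adjusted p was 0.0050 without female replicate 7, the highest female, and did not pass in the other 20 alternatives. miR-21-5p was 417603 to 793293 in females and 497547 to 1994316 in males (limma adjusted p = 0.21).

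Markers of the tissues beside the pads were read from lists of miRNAs and genes. Here and in the other miRNA lists the counts are of features. These include copies and both strands of 1 hairpin, which are not separate measurements. Of the 14 tested epithelial miRNAs, 13 had a difference below 0, with a median of -0.94 (-0.75 in WT animals), and none was called. miR-183-5p, an epithelial and sensory miRNA, was 86.5 to 225 in females and 39 to 80 in males without overlap (difference -1.09 ± 0.26, SE; limma adjusted p = 0.063). miR-200b-3p, an epithelial miRNA, was 453 to 2957 in females, highest in replicate 12, and 166 to 606 in males (limma adjusted p = 0.15). The summed epithelial list overlapped, with 21964 to 53459 for the females and 19576 to 54711 for the males. The miRNAs of ciliated and male germ cells summed to 1737 to 4662 in females and 1317 to 5832 in males, and miR-34c-5p had a difference of 0.15 ± 0.45 (SE; limma adjusted p = 0.88). Of the 7 tested features of striated muscle miRNAs, 6 had a difference below 0, with a median of -1.07 (-0.72 in WT animals) and no call. They include copies of the same strand, such as miR-1a-1-3p and miR-1a-2-3p. miR-1a-1-3p was 15086 to 35007 in females and 10513, 11537, 12409, 13149.9 and 22848 in males (difference -1.02 ± 0.25, SE; limma adjusted p = 0.063). The limma adjusted p was 0.0039 without female replicate 7, the lowest female. It was under the threshold in 3 alternatives and not in 18. The hepatocyte miRNA miR-122-5p was present in all libraries, at 46337 to 87472 in females and 46774 to 123944 in males (limma adjusted p = 0.65). The adipocyte list had a median of -0.09 over 57 features (-0.14 in WT animals) and no call. It shares miR-133a, miR-133b, miR-155, miR-146b and miR-335 with the muscle, immune and imprinted lists, and it also holds miR-34a. The abundant miR-26a-2-5p and miR-30a-5p overlapped, with differences of -0.15 and -0.06.

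The remaining lists held no call, and their medians are given for humanized and then for WT animals. All 13 tested miRNAs of the miR-17-92 and miR-106b-25 clusters, which are transcribed in dividing cells, had a difference above 0, with medians of 0.37 and 0.40. The miR-15 and miR-16 family was above 0 in 8 of 11 (medians 0.32 and 0.52), and the let-7 family in 13 of 16 (medians 0.05 and 0.22). Of the 57 tested miRNAs of the imprinted Dlk1-Dio3 cluster 47 were below 0 (medians -0.20 and -0.34), and miR-666-3p did not overlap, at 43.8 to 67.8 in females and 26 to 39.5 in males (limma adjusted p = 0.070). The Sfmbt2 cluster was above 0 in 19 of 31 (medians 0.16 and 0.01) and the other imprinted miRNAs in 5 of 6 (medians 0.43 and -0.24). Neural miRNAs were below 0 in 13 of 18 (medians -0.41 and -0.31), mesenchymal miRNAs in 14 of 31 (medians 0.04 and -0.21) and hepatocyte miRNAs in 4 of 7 (medians -0.15 and 0.73). Ciliated and male germ cell miRNAs were below 0 in 3 of 6 (medians -0.01 and -2.05), and both endothelial miRNAs were above 0 (medians 0.35 and 0.21). The immune, hepatocyte, mesenchymal and other imprinted lists thus had medians of opposite sign in the 2 genotypes, a difference not tested for the lists. Over the 480 autosomal features with the annotated start, 54.4% were below 0.

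**Figure D4:**
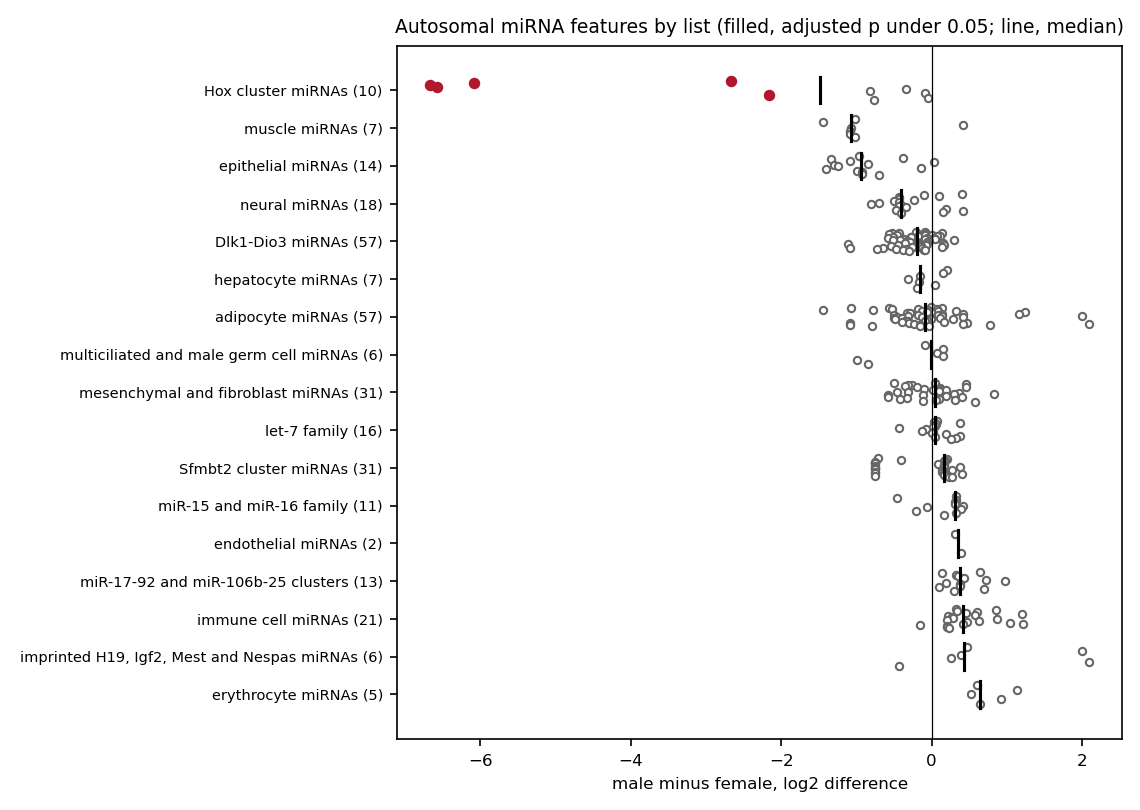
Male minus female log2 difference (horizontal axis) of the tested autosomal features with the annotated start in 17 miRNA lists (vertical axis, number tested in parentheses), with the median of each list as a line. The 5 features of the Hox cluster list between -6.67 and -2.16 passed the test, and no feature of another list did.

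In the mRNA libraries the adipocyte genes were high in all 6 humanized libraries, with a summed signal of 2432952 to 2848739 in females and 1678451 to 2598346 in males. Of the 11 epididymis genes, Cst8, Cst11, Lcn10 and Ros1 were at 0 in all 6 libraries, and only Rnase10 had enough signal to be tested. Rnase10 was 18.2, 24.3 and 32.5 in the females and 2.72, 7.83 and 6.29 in the males (limma adjusted p = 0.35). Of the others, Lcn8 was 8.35, Adam28 3.72 and Lcn5 3.69 in male replicate 4 and all were at 0 in the other 2 males. In females Lcn5 reached 3.05, Adam28 0.883 and Lcn8 0. Adam7 went the other way, at 1.77, 0 and 1.37 in the females and at 0 in 3 of 3 males. Crisp1 reached 0.759 in females and 0.930 in males, and Lcn9 reached 0 in females and 0.928 in males. The 9 testis germ cell genes summed to 6.36 to 23.3 in females and 9.25 to 24.6 in males, with Acrv1 at 0 in all 6. Of the 11 ovary genes, Cyp19a1, Fshr and Zp1 were at 0 in all 6, and the list summed to 191 to 258.4 in females and 131.65 to 142.7 in males. Of the 9 genes of oviduct and uterus 8 were tested and 2 were called lower in males, against 0.0747% of all genes tested, and these were the Hox genes Hoxa10 and Hoxa11 already counted above. Of the 8 tested, 6 had a difference below 0 and 2 above. Pgr, the progesterone receptor, was 38.5, 269 and 855 in females and at 0 in 3 of 3 males (limma adjusted p = 0.070). The 2 above 0 overlapped between the sexes. Ovgp1 was 73.3 to 113.8 in females and 69.7 to 126.2 in males, and Msx1 was 164.4 to 430.7 in females and 306.8 to 473.3 in males. The 9 epithelial genes, 6 of them tested, summed to 5154 to 12094 in females and 685 to 5385 in males with no call. The mesothelial genes summed to 27486 to 58273 in females and 2775 to 19999 in males without overlap, and none of the 4 was called. The smooth muscle genes summed to 32744 to 155964 in females and 35420.3 to 50939 in males. Their part in the miRNA differences was not tested, and in whole tissue fewer cells of a type and less RNA per cell cannot be told apart.

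WT animals, which shared no library with the humanized comparison, gave the same comparison a second time. Of 1298 features 11 were called lower in males, or 0.847%, and 2 higher, or 0.154% (1.0% in all), with 224 at an unadjusted p under 0.05. Of the 11 autosomal calls in WT animals 9 were also called in humanized animals, which is 81.8% of the WT calls and 9 of the 18 humanized calls, and all 9 were miR-196 features. All 18 had a difference below 0 in WT animals, as had 612 of the 1106 autosomal features tested. Of the 18, 12 showed no overlap there. Over all features tested, 3.16% were without overlap and lower in males, 2.31% higher and 5.47% either way. The 18 hold copies and forms of the same strands, so they are not 18 separate measurements. miR-196a-2-5p was 31587 to 37533 in 5 WT females and 368 to 613 in 4 WT males, a difference of -6.17 ± 0.16 (SE; limma adjusted p = 9.5e-08). miR-196b-5p was 8212 to 13753 in WT females and 87.5 to 447 in WT males, a difference of -5.49 ± 0.42 (SE; limma adjusted p = 0.00015). miR-344d-2-3p did not overlap in WT animals, at 25.2 to 95.7 in females and 0 to 19.9 in males, with a difference of -2.09 ± 0.44 (SE; limma adjusted p = 0.069). miR-582-5p was 48.5 to 133.9 in WT females and 0 to 53.6 in WT males (difference -1.39 ± 0.51, SE; limma adjusted p = 0.21). miR-10b-5p had a difference of -0.44 ± 0.17 (SE; limma adjusted p = 0.24). Without WT female replicate 10 the WT count was 19, without WT female replicate 6 it was 8, without WT male replicate 6 or 9 it was 7, and without WT male replicate 12 it was 22.

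The test of the difference between genotypes called no feature, or 0.0%, of 1298 (limma), with 71 at an unadjusted p under 0.05 and a smallest adjusted p of 0.43. For miR-196a-2-5p the humanized difference minus the WT difference was -0.50 (limma adjusted p = 0.90). For miR-582-3p it was -1.33 (limma adjusted p = 0.80). Over the 1106 autosomal features the differences of the 2 genotypes had a Pearson r of 0.68, and of 0.52 over the 1097 features without miR-196. This is a description across features, which are not independent.

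**Figure D5:**
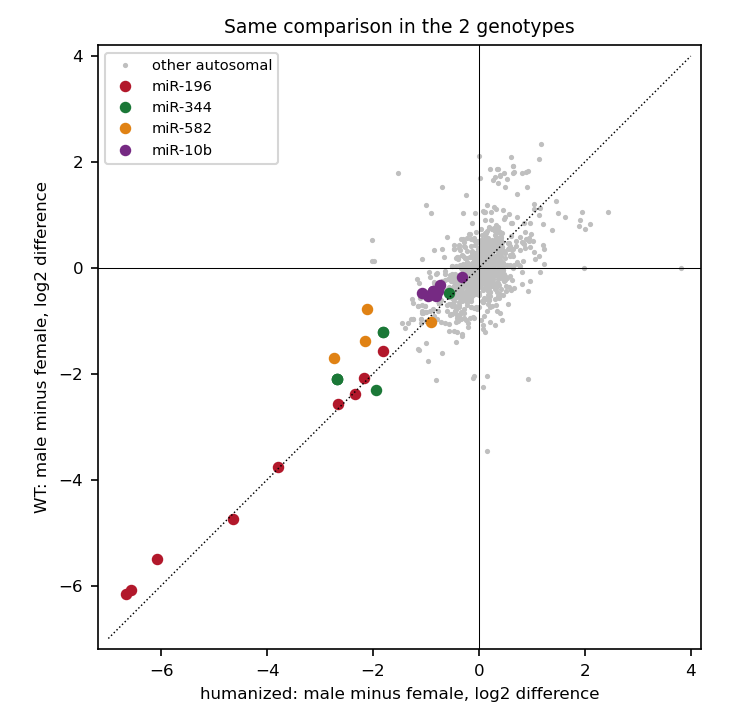
Male minus female log2 difference in WT animals (vertical axis) against that in humanized animals (horizontal axis), 1 point for each of 1106 autosomal features, with a dotted line of equal values. The miR-196 features lie along that line down to -6.67 in humanized and -6.17 in WT animals.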

How the data were processed

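Small RNA libraries were prepared with the CleanTag kit and gene expression libraries were made from the same tissue type, per the labels' protocols. Per the file headers, the authors deposited normalized counts of 2173 miRNA features, used here as signal, and batch-corrected rlog values on a log2 scale; gene expression was deposited by the authors as a signal of normalized counts. The submitters' processing notes name STAR, Salmon, DESeq2, limma and the build mm9, without roles. Every small RNA value was a whole multiple of 1 step of its library (tolerance 0.01 steps) when its smallest value is set to 10 steps, and a step is read here as 1 read.

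For small RNA, log2(signal + 10) entered a linear model in limma 3.58.1 (R 4.3.3, trended empirical Bayes) with the run as covariate; the 1298 features tested averaged 10 or more across the 20 libraries, and mRNA was tested on log2(signal + 1) over 17394 genes in a fit of 4 groups. Called means an adjusted p under 0.05 (Benjamini-Hochberg). The script was tested on simulated data. A feature is autosomal where every RefSeq locus of it is: 1853 of 2173.

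The members and lists were chosen with earlier results of these data known. Named were the 10 largest called autosomal differences each way with a mean of at least 100, with their shifted forms; up to 4 features of smallest p from each list; the 5 most abundant; the 5 smallest p in a direction with under 5 calls; and neighbouring and marker genes. The gonad list was listed at 0 in all libraries and was not tested. Liver tables were not used here.

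Replicate numbers come from the titles. In the mRNA libraries same-numbered humanized males and females deviated together (correlations 0.40, 0.32 and 0.15 over genes), so a fit with the number as a block is given where it changes a call. In the small RNA libraries the correlations were 0.11, 0.12 and 0.0014, and the numbers were not taken as pairs. Nothing says that replicates came from separate cages or litters, so p-values measure the spread between these samples.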

Additional observations from a re-analysis of the deposited data

Results flagged for a closer look

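In 33 of 188 groups of 4 to 6 libraries, each a named miRNA in 1 group, the highest or lowest library lay beyond Dixon's 95% limit; chance gives about 1 in 20. All values are signal, and none is weighed here.

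Among humanized females, replicate 9 was far above the others for miR-217-5p (9449.5) and miR-216a-5p (1924), both named after their values were seen. Replicate 7 was high for miR-147-3p (388) and low for miR-1a-1-3p (15086) and miR-30a-5p (528893). Replicate 6 was high for miR-196b-3p (82.1) and miR-449a-5p (1344), replicate 12 for miR-200b-3p (2957) and replicate 11 for miR-133a-2-3p (6598).

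Among humanized males, replicate 8 stood out for miR-344e-3p (93.2) and the +1 form of miR-582-5p (20.7), and replicate 9 for miR-1a-1-3p (22848) and the +1 form of miR-196a-2-5p (9.41). Replicate 13 was low for the -1 form of miR-10b-3p (179.7), and replicate 10 was high for miR-495-3p (92.1).

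WT female replicate 10 stood apart in 7 miRNAs: miR-34c-5p (109625), miR-200b-3p (10999), miR-449a-5p (4796), miR-204-5p (7589.6), miR-155-5p (20712), miR-342-5p (619) and miR-10a-5p (261153). Its library was deposited as adipose, and the first 3 of these are miRNAs of epithelial and ciliated cells. Other WT females stood out once or more: replicate 6 for miR-582-5p (133.9) and miR-344e-3p (172.6), replicate 7 for miR-144-3p (8138), replicate 8 for miR-1a-1-3p (61929) and the -1 form of miR-196a-2-5p (27.8), and replicate 11 for both copies of miR-344-3p (53.2).

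Among WT males, replicate 9 stood out for miR-615-3p (1093), replicate 11 for miR-30a-5p (952761), and replicate 12 for miR-582-3p (16.7) and miR-200b-3p (251).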

How the results depend on the processing

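The humanized comparison called 20 features, 2 higher and 18 lower. It called 5 with a mean signal of at least 100, 39 (8 higher, 31 lower) on the authors' batch-corrected rlog values, 31 in a fit of 4 groups, 10 in the first run alone and 10 in the second; without 1 library the count ran from 17 (without female replicate 6) to 56 (without female replicate 7). The WT comparison called 13, and 6, 27, 70, 30 and 4 under those settings in that order, and 7 to 22 without 1 library. The difference between genotypes called 0 features under all 27 alternatives (limma; 71 at an unadjusted p under 0.05). The mRNA fit called 20 genes, 35 from humanized libraries only and 12 to 20 without 1 library. Of the 18 autosomal calls 9 held in the first run, 7 in the second and all 18 on rlog values, and all 18 kept their sign in every setting that tested them. The causes were not tested.

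Small RNA replicate numbers shared by the sexes had correlated deviations of 0.11, 0.12 and 0.0014 and do not pair the samples. A fit with the replicate block called 10 features, among them 9 of the 18, all 9 of them miR-196 features. In the mRNA libraries the replicate block gave 17 genes and changed no call of a gene named here.

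Signs reversed for values near 0. The difference of miR-10a-5p was 0.016 in the first run, 0.040 with the replicate block, and -0.16 to 0.10 without 1 library. That of miR-34c-5p was -0.69 with the replicate block and -0.23 to 0.53 without 1 library. miR-122-5p was -0.0071 in the second run, and miR-26a-2-5p 0.010 in the first. miR-30a-5p was 0.0066 in the first run, 0.084 with the replicate block and -0.17 to 0.084 without 1 library. Hoxb4 ran from -0.0849 to 0.14 without 1 library.

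Count models (edgeR and DESeq2) were planned as alternatives and were not run. The deposited values are normalized. Each was a whole multiple of the step of its library, but reads are inferred by taking the smallest value as 10 reads. They were not accepted as whole reads for such models. Low features such as miR-344-3p and miR-582-3p lie near the limit of 10 reads.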
